A study of Homo sapiens with 8 samples.

Results

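The liver breaks down most amino acids and turns the nitrogen they release into urea, and the 36 genes described here encode the enzymes of that work. They are 4 genes of histidine breakdown (HAL, UROC1, AMDHD1, FTCD), 4 of the kynurenine route of tryptophan (TDO2, KMO, KYNU, HAAO), 5 of tyrosine (TAT, HPD, HGD, GSTZ1, FAH), 4 of the methionine cycle (MAT1A, AHCY, BHMT, GNMT), 5 of serine, glutamine, proline and ornithine (SDS, GLS2, PRODH, ALDH4A1, OAT), 6 of the urea cycle (ARG1, ASS1, ASL, CPS1, OTC, NAGS), 3 of glycine and glyoxylate (GLDC, AMT, AGXT) and 5 of the branched-chain amino acids (BCKDHA, BCKDHB, IVD, MCCC1, MCCC2). They were taken by symbol from a fixed list, and all 36 were found among the 26716 genes of the table. Enough counts for a test were present for 34 of them, among 17715 genes tested. TDO2, the first enzyme of tryptophan breakdown, had 0 or 1 counts in every library, and KMO, the hydroxylase upstream of KYNU, had 2 to 8, so neither was tested.

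The cells were HepG2, a line from a human hepatocellular carcinoma, and all results come from this 1 line. Poly(A) RNA was sequenced 72 h after transfection in 4 groups of 2 libraries. NC received a control mimic (1 nM) and a control siRNA (30 nM). The miR-552-3p group received the miR-552-3p mimic with control siRNA, the siIPO8-NC group received siRNA against importin8 (gene IPO8) with control mimic, and the siIPO8-miR-552-3p group received both, at the same concentrations. Below, the mimic alone and the siRNA alone stand for the second and the third group, each of which also received the control of the other agent. Every group was thus transfected with a mimic and an siRNA, and untransfected cells were not analysed here. A microRNA mimic is a synthetic duplex that loads a chosen microRNA into Argonaute, and importin8 is a nuclear import receptor of the importin beta family that also binds Argonaute proteins. The crossed groups ask what the mimic does to gene expression with and without importin8 knockdown, and what the knockdown does with and without the mimic.

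As background, each route of amino acid breakdown starts with an enzyme that commits the amino acid (HAL for histidine, TDO2 for tryptophan, TAT for tyrosine, MAT1A for methionine, SDS for serine) and ends in carbon for gluconeogenesis, ketone bodies or the citrate cycle. The ammonia set free enters the mitochondrial steps of the urea cycle at CPS1 and OTC and leaves the cytosol as urea through ASS1, ASL and ARG1. Most of these enzymes are strongly expressed in hepatocytes, and hepatoma lines are known to have lost part of that expression.

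The mimic is named after the mature microRNA below, which is printed because bases 2 to 8, its seed (in capitals), set which messages it can pair with. RefSeq places it at chr1:34669614-34669634 of GRCh38.p14, on the minus strand.
hsa-miR-552-3p: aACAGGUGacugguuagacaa
The 7-base match to that seed, CACCTGT, was looked for in the longest 3′ UTR of each gene in GENCODE 29, on the transcript strand. It was present in 6 of the 36 genes (16.7%) and in 3282 of 19113 genes with a 3′ UTR (17.2%), with a median UTR of 710 bases in the 36 and 1106 bases in all genes. The 6 stretches, with the match in capitals, were as follows.
FAH, from UTR base 325: tgaaaagagactggCACCTGTa
MAT1A, from UTR base 517: tgatgtctcctaagCACCTGTa
SDS, from UTR base 95: tatgtttggctgagCACCTGTg
AGXT, from UTR base 34: ctggcactggcacaCACCTGTc
BCKDHA, from UTR base 227: gtcagccccctcttCACCTGTt
IVD, from UTR base 744: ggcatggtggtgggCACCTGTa
The base number is that of the first capital. With control siRNA the mimic lowered AGXT and MAT1A among these 6, raised FAH and SDS, and left BCKDHA and IVD without a call, with values given below. A match is a description of these letters and was not tested as a site.

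Each library held 21608563 to 22102373 expected counts. IPO8 itself stood at 34.6 and 33.3 CPM (counts scaled to a common library total) in NC and 25.4 and 24.6 with the mimic alone, against 11.4 and 11.5 with the siRNA alone and 7.64 and 8.30 with both agents. It fell 2.98-fold with the siRNA beside control mimic and 3.14-fold beside the mimic (edgeR's quasi-likelihood test, Benjamini-Hochberg adjusted p = 4.5e-07 and 1.4e-06). The libraries do not measure the mimic. The first principal component of all genes (51.4% of the variance) spread all 4 groups. NC stood at its low end (-88.8 and -94.3), then siIPO8-NC (-19.3 and -24.7), siIPO8-miR-552-3p (41.05 and 38.25) and miR-552-3p (75.3 and 72.4). The comparisons that use no NC library, the mimic within importin8 siRNA and the siRNA within mimic, are given beside those that do. All 11 hepatocyte-derived markers were tested and summed to 49050 to 57270 CPM in NC, 43250 to 44440 with the mimic alone, 53870 to 57030 with the siRNA alone, and 62320 to 63510 with both agents. Sums over markers of fibroblasts (6 of 10 tested, with DCN and LUM near 0) were 308 to 315, 216 to 225, 138 to 141 and 123 to 131 CPM in the same order, those of endothelial and blood cells (7 tested) 82.5 to 89.8, 155 to 165, 79.6 to 103 and 104 to 109, and those of cholangiocytes and progenitors (8 tested, with KRT7 near 0) 924 to 987, 2388 to 2421, 721 to 729 and 1147 to 1187. Their part in the results below was not tested. In bulk RNA, fewer cells of a kind and less RNA per cell cannot be told apart. Whether the 2 libraries of a group are separate cultures is not in the labels, and p-values therefore cover only the spread between these libraries.

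The importin8 siRNA raised more of these genes than it lowered. The mimic lowered more than it raised, by a wider margin with importin8 siRNA (12 and 4) than with control siRNA (15 and 10). A gene was called when its adjusted p (edgeR's quasi-likelihood test, Benjamini-Hochberg over all 17715 genes) was under 0.05. With control mimic, the siRNA raised 18 of the 34 genes and lowered 4, where 47% of all genes tested were called, 25.4% up and 21.6% down. Beside the mimic, it raised 18 and lowered 3, where 33.5% were called, 17.3% up and 16.2% down. The median log2 fold change of the 34 was 0.52 and 0.27 in these comparisons, against 0.00 and -0.01 over all genes tested. Without siIPO8-miR-552-3p replicate 1, fewer genes were called raised beside the mimic, both among the 34 and among all genes tested.

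With control siRNA, the mimic raised 10 of the 34 genes and lowered 15, where 58.4% of all genes were called, 28.9% up and 29.5% down. With importin8 siRNA, it raised 4 and lowered 12, where 31.7% were called, 15% up and 16.7% down. The medians were -0.14 and -0.22, against -0.01 and 0.00 over all genes. Libraries scaled by their totals alone gave 3 raised and 15 lowered in the latter comparison, with 2107 and 3638 of all genes, against 2649 and 2958 with the TMM factors used throughout. Without siIPO8-NC replicate 2, the rises of HAL and KYNU lost their calls in that comparison, where fewer of all genes were called too. Changes of at least 2-fold were 7 up and 8 down for the mimic with control siRNA (11.2% and 13.8% of all genes), 1 up and 5 down with importin8 siRNA (3.09% and 3.3%), 8 up and 0 down for the siRNA with control mimic (5.68% and 8.39%), and 9 up and 1 down for the siRNA with mimic (2.88% and 4.84%). At least 1 of these 4 comparisons called 30 of the 34 genes, and 72.3% of all genes. PRODH, GLS2, BCKDHA and MCCC1 were called in none.

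**Figure D1:**
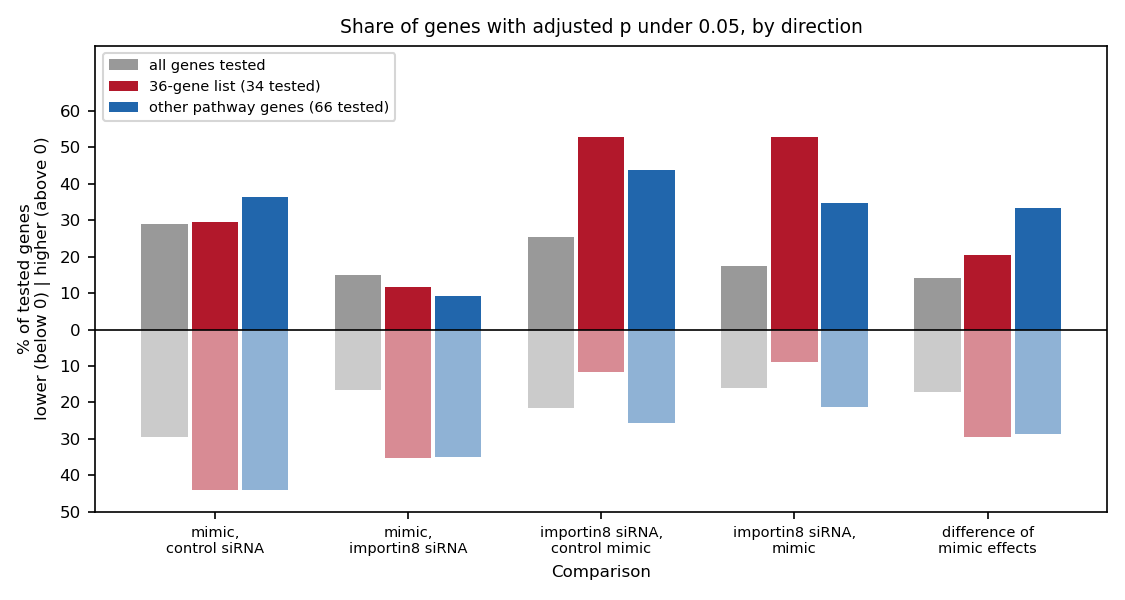
Share of genes called higher (above 0) or lower (below 0) in each comparison, in % of the genes tested, for all 17715 genes, the 34 tested genes of amino acid breakdown and the urea cycle, and 66 other genes of the same pathways. In both importin8 siRNA comparisons the 34 genes have 18 called higher, and 4 or 3 called lower.

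The siRNA comparisons share no library with each other, nor do the mimic comparisons. GSTZ1, UROC1, MCCC2, MAT1A, OAT, AMDHD1, ASL, BHMT, GLDC, HAL, TAT and ALDH4A1 rose with the siRNA in both settings. These 12 are 35.3% of the 34 genes, against 9.98% of all genes tested, and 0 genes fell in both, against 6.79%. Another 6 genes (AHCY, ASS1, AGXT, NAGS, AMT and KYNU) moved in opposite directions in the siRNA comparisons, 17.6% against 5.66% of all genes. With the mimic, 10 genes fell in both settings (FTCD, UROC1, MAT1A, AGXT, HAAO, AMT, GNMT, BHMT, OTC and ALDH4A1), 29.4% against 13.6% of all genes. NAGS, HAL, TAT and KYNU rose in both, 11.8% against 12.8%. UROC1, MAT1A, BHMT and ALDH4A1 thus rose with the siRNA in both settings and fell with the mimic in both, and HAL and TAT rose in all 4 comparisons. The share of all genes with either of these patterns was not computed, so they cannot be read as a trait of this list. An siRNA and a mimic comparison always share a group, so these are 1 gene's levels read in several ways. Some of these calls depended on single libraries, as given with each gene below.

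**Figure D2:**
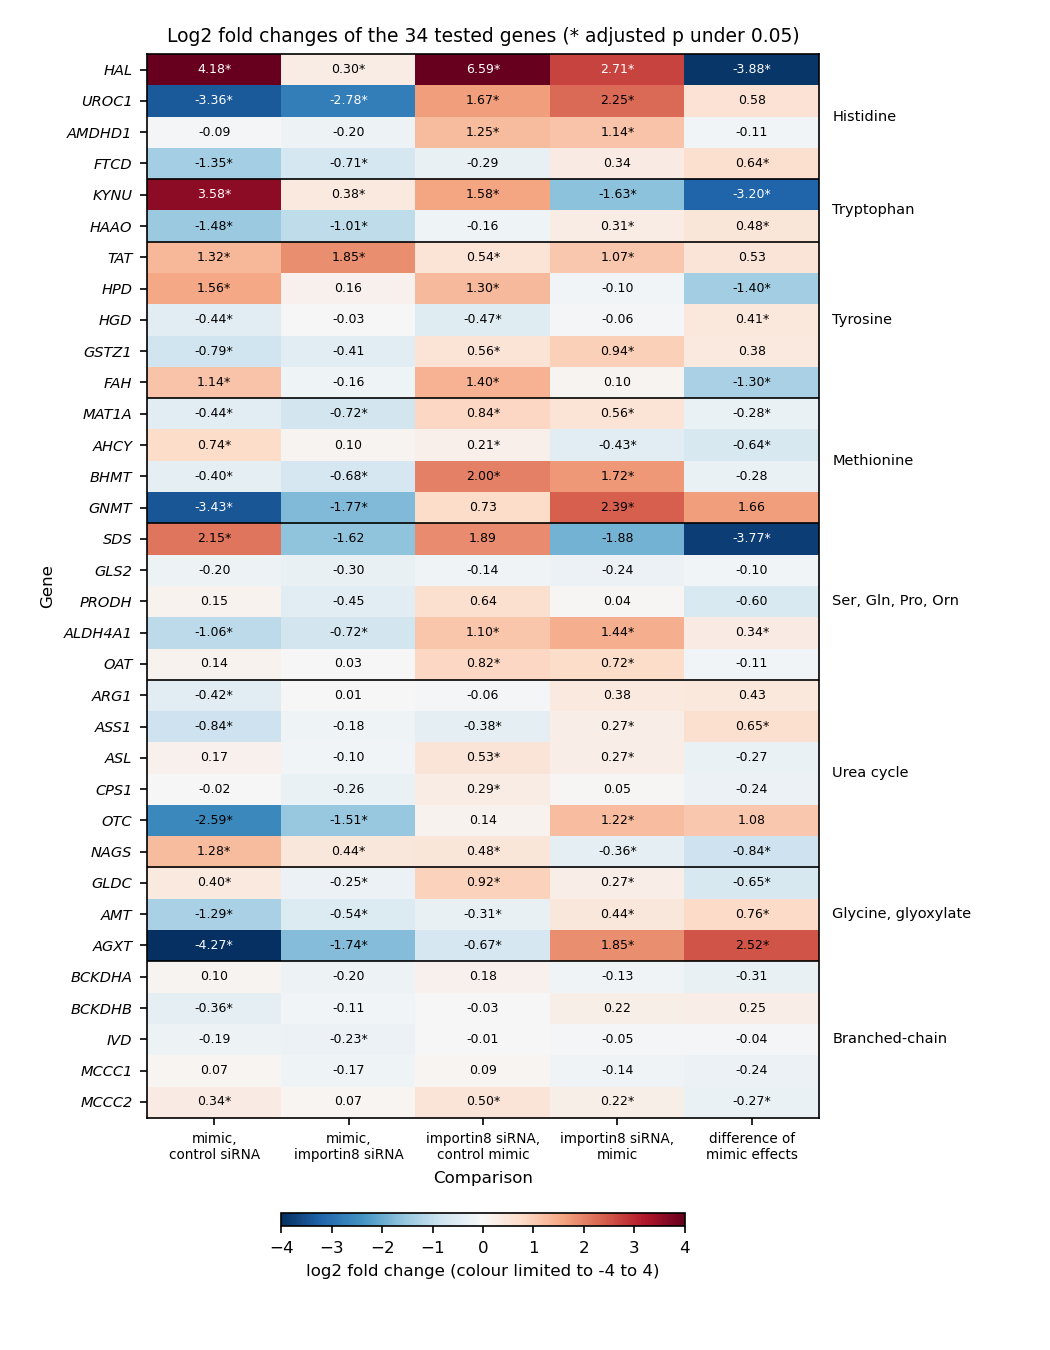
Log2 fold changes of the 34 tested genes (rows, grouped by route) in the 4 pairwise comparisons and in the difference between both mimic effects (columns), with an asterisk where the adjusted p was under 0.05. Colours stop at -4 and 4. The largest value is 6.59 for HAL with the importin8 siRNA and control mimic, and the lowest is -4.27 for AGXT with the mimic and control siRNA.

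The histidine genes included the gene with the widest change, HAL. HAL, histidine ammonia-lyase, which takes the amino group off histidine (chr12:95972662-95996344), stood at 0.585 and 0.394 CPM in NC, 9.38 and 8.57 with the mimic alone, 50.0 and 45.3 with the siRNA alone, and 60.1 and 57.5 with both agents. The 4 groups did not overlap, and NC was lowest by far. HAL rose 96.4-fold with the siRNA and control mimic (log2 6.59, SE 0.15, adjusted p = 3.5e-09), from 13 and 9 counts in the NC libraries. Beside the mimic, which had already raised it 18.2-fold (log2 4.18, SE 0.18, adjusted p = 2.9e-08), the siRNA raised it 6.54-fold (log2 2.71, SE 0.10, adjusted p = 2.7e-07). With importin8 siRNA the mimic effect was 0.30 (SE 0.08, adjusted p = 0.02), and both mimic effects differed by -3.88 on the log2 scale (SE 0.21, adjusted p = 1.3e-06). That small rise lost its call with DESeq2 (0.31, adjusted p = 0.12), with library totals alone (0.23, 0.055), and without siIPO8-NC replicate 2 (0.24, 0.16), siIPO8-miR-552-3p replicate 1 (0.28, 0.11) or replicate 2 (0.35, 0.058).

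UROC1, urocanate hydratase, the next enzyme (chr3:126481166-126517773), stood at 1.22 and 1.27 CPM in NC, 0.0916 and 0.141 with the mimic alone, 3.32 and 4.63 with the siRNA alone, and 0.673 and 0.474 with both agents. Both mimic groups lay below both control mimic groups, unlike HAL. The mimic lowered it with control siRNA (log2 -3.36, SE 0.46, adjusted p = 0.00013) and with importin8 siRNA (-2.78, SE 0.35, adjusted p = 0.00026), and these effects did not differ by the test (0.58, adjusted p = 0.54). The siRNA raised it 3.19-fold with control mimic (log2 1.67, SE 0.32, adjusted p = 0.0018) and by 2.25 with the mimic (SE 0.50, adjusted p = 0.0062). The miR-552-3p libraries held 2 and 3 counts, so the ratio of NC to miR-552-3p was 10.7 with a 95% exact counting interval of 4.31 to 34.1, and that of siIPO8-miR-552-3p to miR-552-3p was 4.93 (1.85 to 16.6). The siRNA call beside the mimic was lost with limma-voom (2.10, adjusted p = 0.052) and without miR-552-3p replicate 1 (1.98, adjusted p = 0.05).

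AMDHD1, imidazolonepropionase, the enzyme after UROC1 (chr12:95943331-95968720), stood at 6.39 and 5.70 CPM in NC, 5.13 and 6.27 with the mimic alone, 14.5 and 14.3 with the siRNA alone, and 13.2 and 12 with both agents. Both siRNA groups lay above both control siRNA groups, and NC and miR-552-3p overlapped. It rose 2.38-fold with the siRNA and control mimic (log2 1.25, SE 0.13, adjusted p = 3.9e-05) and 2.21-fold beside the mimic (1.14, SE 0.14, adjusted p = 0.00014), and no mimic effect was called (-0.09 and -0.20, adjusted p = 0.63 and 0.28). AMDHD1 and HAL are neighbours on chromosome 12 whose ends face each other across 3941 bases. FTCD, which passes the formimino group of histidine to folate, stood at 102 and 130 CPM in NC, 43.9 and 47.7 with the mimic alone, 90.6 and 99.7 with the siRNA alone, and 55.8 and 60.5 with both agents. The mimic groups were lowest. FTCD fell 2.54-fold with the mimic and control siRNA (adjusted p = 1e-05), and by 0.71 on the log2 scale with importin8 siRNA (adjusted p = 0.0017).

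FTCD's siRNA effects missed the threshold (-0.29, adjusted p = 0.058, and 0.34, adjusted p = 0.051). The first was called with DESeq2 (-0.30, adjusted p = 0.041) and without NC replicate 1 (-0.46, 0.0016). The second was called with DESeq2, in a fit of its own 4 libraries, and without either NC library (log2 0.34 to 0.35, adjusted p 0.0052 to 0.034). FTCD's mimic effects differed by 0.64 (SE 0.16, adjusted p = 0.016), a call lost without miR-552-3p replicate 1 (0.57, adjusted p = 0.07), siIPO8-NC replicate 1 (0.57, 0.062), or again without siIPO8-miR-552-3p replicate 2 (0.58, 0.08).

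**Figure D3:**
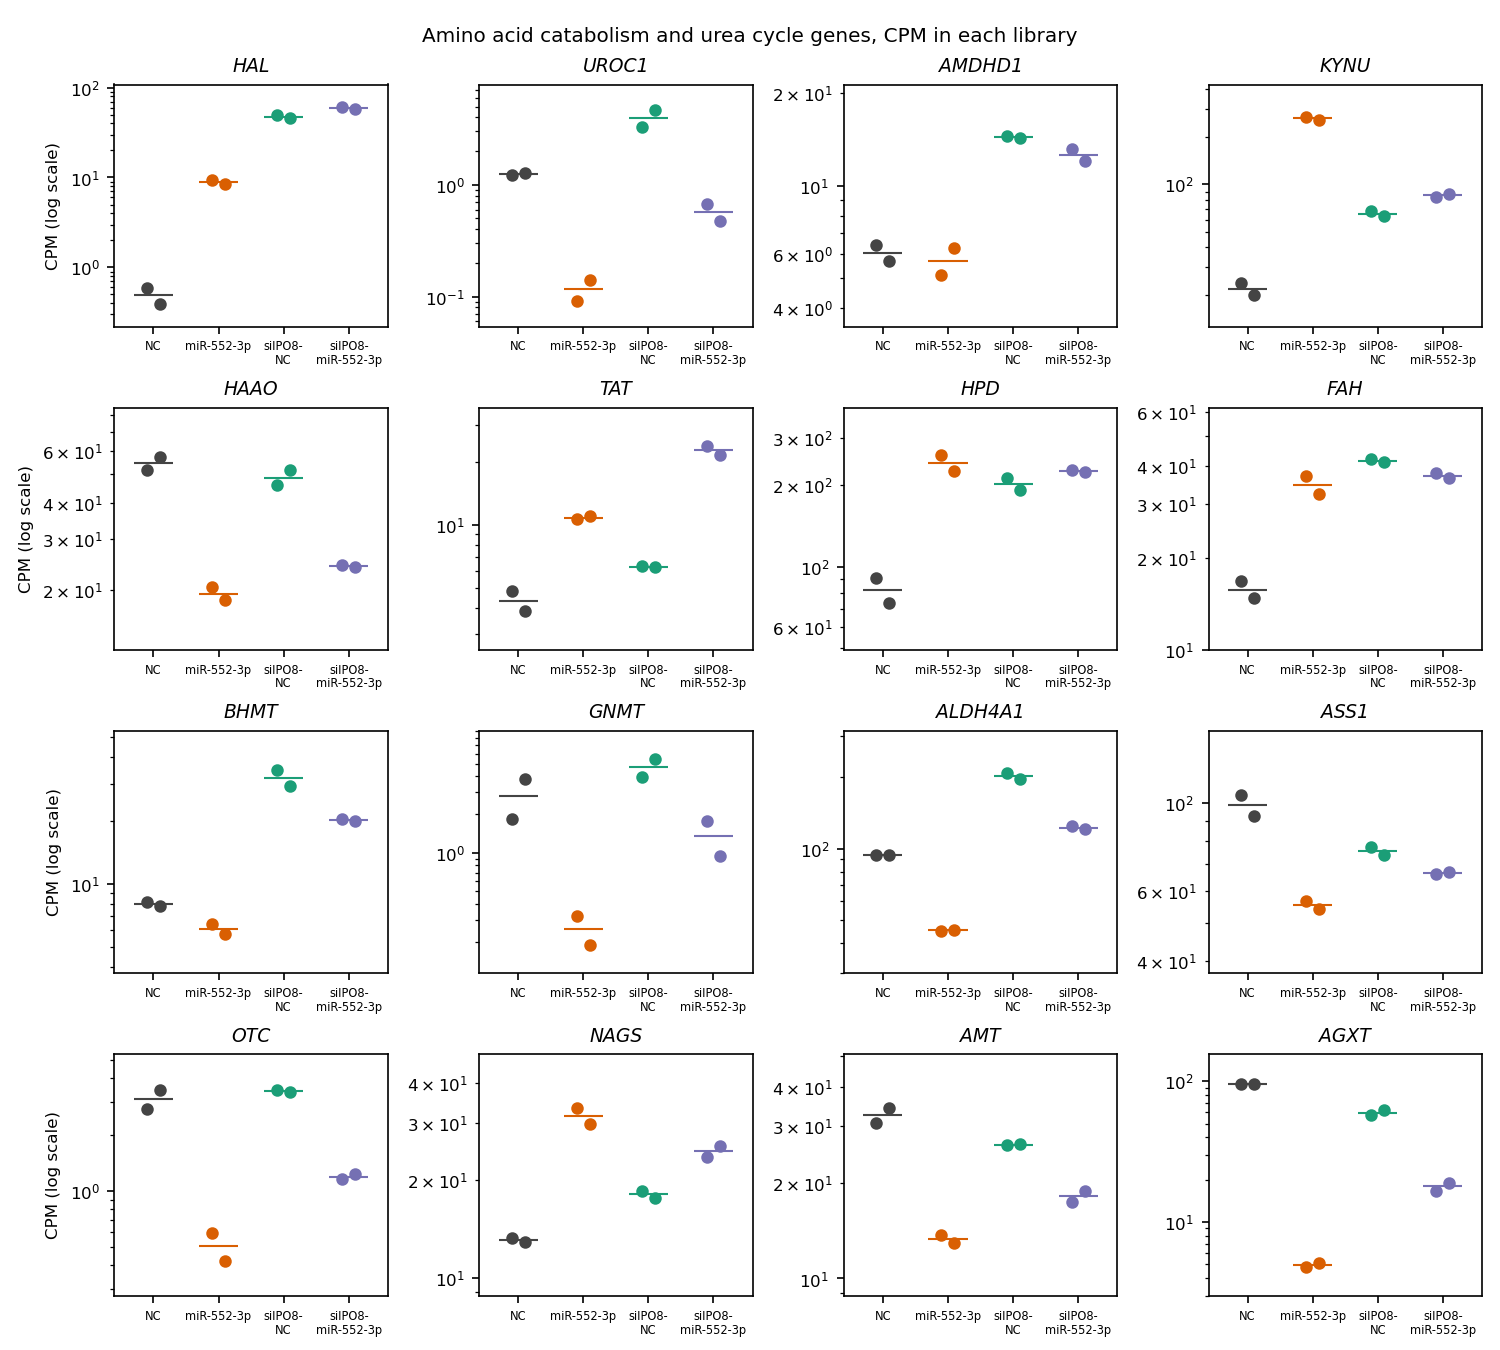
CPM on a log axis for 16 genes in each library, with points for the 2 libraries of a group and a line at the group mean. HAL is lowest in NC and highest in both importin8 siRNA groups, KYNU is highest in miR-552-3p (268 and 257 CPM), and AGXT is lowest there (4.81 and 5.09 CPM).

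In the tryptophan route, KYNU and HAAO moved apart with the mimic. KYNU, kynureninase, which splits kynurenine and hydroxykynurenine (chr2:142877664-143055833), stood at 23.8 and 20.1 CPM in NC, 268 and 257 with the mimic alone, 68.1 and 62.8 with the siRNA alone, and 83.1 and 87.2 with both agents. All 4 groups stood apart, with miR-552-3p alone far above the rest. It rose 12-fold with the mimic and control siRNA (log2 3.58, SE 0.09, adjusted p = 1.4e-09), and by 0.38 (SE 0.08, adjusted p = 0.0054) with importin8 siRNA. The siRNA raised it 2.98-fold with control mimic (1.58, SE 0.09, adjusted p = 5.6e-07) and lowered it 3.08-fold beside the mimic (-1.63, SE 0.08, adjusted p = 9.8e-07). The difference between both mimic effects, which is also that between both siRNA effects, was -3.20 (SE 0.12, adjusted p = 2.4e-07). Without siIPO8-NC replicate 2, the rise with importin8 siRNA was not called (0.32, adjusted p = 0.059).

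HAAO, the dioxygenase that makes the precursor of quinolinate for NAD, stood at 51.8 and 57.1 CPM in NC, 20.5 and 18.5 with the mimic alone, 45.9 and 51.6 with the siRNA alone, and 24.4 and 24.1 with both agents. Both mimic groups were low. HAAO fell 2.80-fold with the mimic and control siRNA (log2 -1.48, SE 0.09, adjusted p = 3.5e-07) and 2.01-fold with importin8 siRNA (-1.01, SE 0.09, adjusted p = 3.3e-05). The siRNA effect was -0.16 with control mimic (adjusted p = 0.15) and 0.31 beside the mimic (SE 0.09, adjusted p = 0.026). The latter was not called with DESeq2 (0.31, adjusted p = 0.11), with library totals alone (0.29, 0.06), or without miR-552-3p replicate 2 (0.25, 0.15), or without either library with both agents (0.31 and 0.33, adjusted p = 0.13 and 0.1). The difference of 0.48 between the mimic effects (SE 0.13, adjusted p = 0.017) was not called with DESeq2 (0.48, adjusted p = 0.062), or without miR-552-3p replicate 2 (0.40, 0.065), siIPO8-NC replicate 1 (0.39, 0.071), siIPO8-miR-552-3p replicate 1 (0.47, 0.067) or replicate 2 (0.49, 0.059).

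The deposited FPKM, which divide by gene length, order the groups differently for HAAO: the mean was 12.8 FPKM in NC and 17.5 in siIPO8-NC, where the mean CPM was 54.5 and 48.7. The length that count and FPKM together imply for HAAO was 4176 and 4617 bases in NC, 3201 and 3801 with the mimic alone, 2645 and 3003 with the siRNA alone, and 2530 and 2586 with both agents. Implied lengths also varied over the libraries by more than 1.3-fold for ARG1 (1.74 from shortest to longest), BCKDHB (1.43) and FTCD (1.41). The cause was not tested.

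Of the tyrosine genes, those of the first, second and last steps (TAT, HPD and FAH) were higher in the 3 other groups than in NC, while HGD was lower. TAT, tyrosine aminotransferase, stood at 4.81 and 3.86 CPM in NC, 10.7 and 11.0 with the mimic alone, 6.37 and 6.25 with the siRNA alone, and 23.8 and 21.7 with both agents. No group overlapped another, and the group with both agents was highest. The mimic raised it 2.50-fold with control siRNA (log2 1.32, SE 0.13, adjusted p = 1.3e-05) and 3.6-fold with importin8 siRNA (1.85, SE 0.12, adjusted p = 7e-06), and the siRNA raised it by 0.54 (SE 0.14, adjusted p = 0.0086) and 1.07 (SE 0.12, adjusted p = 9.7e-05). The first of these siRNA effects was not called with DESeq2 (0.53, adjusted p = 0.076) or without NC replicate 2 (0.39, adjusted p = 0.064). The mimic effects differed by 0.53 (adjusted p = 0.052), which was called with library totals alone (0.52, adjusted p = 0.046) and without NC replicate 2 (0.68, 0.02).

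HPD, the dioxygenase that makes homogentisate, had the highest mean level per length of the 36 genes and stood at 90.7 and 73.4 CPM in NC, 259 and 225 with the mimic alone, 212 and 192 with the siRNA alone, and 228 and 225 with both agents. NC was low and the other 3 groups lay between 192 and 259 CPM. It rose 2.95-fold with the mimic (log2 1.56, SE 0.11, adjusted p = 1.8e-06) and 2.46-fold with the siRNA (1.30, SE 0.11, adjusted p = 1.3e-05), each in the cells with the other control. No effect was called beside the other agent (mimic 0.16, adjusted p = 0.28, and siRNA -0.10, adjusted p = 0.53), and the mimic effects differed by -1.4 (SE 0.15, adjusted p = 0.00014). Fitted on its own 4 libraries, the mimic effect with importin8 siRNA was called (0.17, adjusted p = 0.039).

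FAH, fumarylacetoacetase, the last enzyme, was likewise lowest in NC: 16.7 and 14.7 CPM in NC, 36.8 and 32.3 with the mimic alone, 41.9 and 41.0 with the siRNA alone, and 37.8 and 36.4 with both agents. NC lay below the rest, and siIPO8-NC lay above both mimic groups. FAH rose 2.2-fold with the mimic (log2 1.14, SE 0.09, adjusted p = 2.9e-06) and 2.64-fold with the siRNA (1.4, SE 0.09, adjusted p = 1.7e-06), and both effects beside the other agent were -0.16 and 0.10 without a call. Its mimic effects differed by -1.30 (SE 0.13, adjusted p = 4.9e-05). HGD, which opens the ring of homogentisate, went the other way, at 103 to 112 CPM in NC and 73.5 to 82.7 in the 6 other libraries. It fell by 0.44 with the mimic and by 0.47 with the siRNA (adjusted p = 0.00032 and 0.0003), and the mimic effects differed by 0.41 (adjusted p = 0.01). GSTZ1, maleylacetoacetate isomerase, was lowest in miR-552-3p (4.81 and 3.77 CPM) and highest in siIPO8-NC (10.1 and 11.8). Its mimic effect was -0.79 with control siRNA (adjusted p = 0.0017) and -0.41 with importin8 siRNA (adjusted p = 0.062), and it rose with the siRNA by 0.56 (adjusted p = 0.011) and 0.94 (adjusted p = 0.0013).

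For GSTZ1, the rise of 0.56 was not called with DESeq2 (0.55, adjusted p = 0.091), without NC replicate 1 (0.50, 0.059) or without siIPO8-NC replicate 2 (0.45, 0.091). Its mimic effect with importin8 siRNA was called with library totals alone (-0.48, adjusted p = 0.04), limma-voom (-0.41, 0.045) and its own 4 libraries (-0.41, 0.034).

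In the methionine cycle MAT1A and BHMT rose with the siRNA and fell with the mimic in both settings, and GNMT did so in most. MAT1A, the liver synthetase of S-adenosylmethionine, stood at 64.6 and 65.6 CPM in NC, 46.9 and 49.4 with the mimic alone, 118 and 116 with the siRNA alone, and 70.3 and 71.6 with both agents. It rose by 0.84 and 0.56 with the siRNA (SE 0.06 each, adjusted p = 2e-06 and 6.6e-05) and fell by 0.44 and 0.72 with the mimic (adjusted p = 0.00012 and 1.7e-05), with control and with the other agent in that order. BHMT, which remakes methionine with a methyl group of betaine, stood at 8.19 and 7.84 CPM in NC, 6.41 and 5.75 with the mimic alone, 34.9 and 29.3 with the siRNA alone, and 20.3 and 19.8 with both agents. Both siRNA groups lay above both others. BHMT rose 4-fold with the siRNA and control mimic (log2 2, SE 0.11, adjusted p = 6.1e-07) and 3.30-fold beside the mimic (1.72, SE 0.12, adjusted p = 4.9e-06), and its mimic effects were -0.40 (adjusted p = 0.02) and -0.68 (adjusted p = 0.00091).

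GNMT, the methyltransferase that uses up surplus S-adenosylmethionine, stood at 1.84 and 3.77 CPM in NC, 0.32 and 0.189 with the mimic alone, 3.90 and 5.44 with the siRNA alone, and 1.78 and 0.949 with both agents. The NC libraries differed from each other by about as much as the siIPO8-miR-552-3p libraries did. GNMT fell 10.8-fold with the mimic and control siRNA (log2 -3.43, SE 0.53, adjusted p = 0.00033) and 3.42-fold with importin8 siRNA (-1.77, SE 0.42, adjusted p = 0.011), and rose 5.25-fold with the siRNA beside the mimic (2.39, SE 0.55, adjusted p = 0.0082). On its counts, 127 in NC and 11 in miR-552-3p, the ratio of the first pair had a 95% exact counting interval of 5.94 to 22.6. Its siRNA effect with control mimic was 0.73 (adjusted p = 0.16). AHCY, which clears S-adenosylhomocysteine and is expressed in many tissues, was highest in miR-552-3p (341 and 327 CPM, against 190 to 249 in the 6 other libraries). It rose by 0.74 with the mimic and control siRNA (SE 0.07, adjusted p = 6.6e-06), and its siRNA effects were 0.21 (adjusted p = 0.027) and -0.43 (adjusted p = 0.00083), a difference of -0.64 (adjusted p = 0.0007).

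Several calls of the methionine cycle rested on single libraries or on the tool. The mimic effect on BHMT with control siRNA was not called with DESeq2, limma-voom or its own 4 libraries (-0.40 each, adjusted p = 0.11, 0.064 and 0.058), nor without NC replicate 1 (-0.37, 0.068), or without miR-552-3p replicate 2 (-0.32, 0.12). For GNMT, the fall with importin8 siRNA was not called without siIPO8-NC replicate 2 (-1.51, adjusted p = 0.076), or again without siIPO8-miR-552-3p replicate 2 (-1.38, 0.088), and the rise beside the mimic was not called with limma-voom (2.29, 0.068) or without miR-552-3p replicate 2 (2.08, 0.071) or siIPO8-miR-552-3p replicate 1 (1.87, 0.07). Without NC replicate 2, the GNMT fall with control siRNA was -2.83 (adjusted p = 0.0013) and its siRNA effect with control mimic was called (1.34, adjusted p = 0.041). Its mimic effects differed by 1.66 (adjusted p = 0.099), and by 2.09 without NC replicate 1 (adjusted p = 0.028). The AHCY rise of 0.21 was not called in its own 4 libraries (0.21, adjusted p = 0.052) or without NC replicate 2 (0.14, 0.1), siIPO8-NC replicate 1 (0.21, 0.1) or replicate 2 (0.22, 0.097). The mimic effects on MAT1A differed by -0.28 (adjusted p = 0.026), and this was not called with DESeq2, with every gene kept, or without miR-552-3p replicate 2, either siIPO8-NC library or either siIPO8-miR-552-3p library (-0.29 to -0.24, adjusted p 0.056 to 0.15).

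Among the genes of serine, glutamine, proline and ornithine, ALDH4A1 and OAT carried the changes. ALDH4A1, the mitochondrial dehydrogenase that turns the semialdehyde from proline and ornithine into glutamate, stood at 94.3 and 94.4 CPM in NC, 45 and 45.5 with the mimic alone, 208 and 198 with the siRNA alone, and 124 and 121 with both agents. The groups did not overlap. ALDH4A1 rose 2.15-fold with the siRNA and control mimic (log2 1.10, SE 0.06, adjusted p = 3.6e-07) and 2.71-fold beside the mimic (1.44, SE 0.06, adjusted p = 4.7e-07), and fell 2.08-fold with the mimic and control siRNA (adjusted p = 2e-07) and by 0.72 with importin8 siRNA (adjusted p = 1.6e-05). Its mimic effects differed by 0.34 (adjusted p = 0.011), or 0.30 without siIPO8-NC replicate 2 (adjusted p = 0.054). OAT, ornithine aminotransferase, stood at 41.6 to 50.5 CPM in the 4 control siRNA libraries and 75.6 to 84.8 in the 4 importin8 siRNA libraries. It rose by 0.82 and 0.72 with the siRNA (SE 0.09 each, adjusted p = 3.9e-05 and 0.00017). No mimic effect on OAT was called (0.14, adjusted p = 0.21, and 0.03), although the first was 0.25 without NC replicate 1 (adjusted p = 0.035).

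SDS, serine dehydratase, had few counts: 4 and 4 in NC, 22 and 13 with the mimic alone, 16 and 14 with the siRNA alone, and 8 and 1 with both agents. Its levels were 0.18 and 0.175, 1.01 and 0.613, 0.718 and 0.63, and 0.385 and 0.0474 CPM in that order, with NC and siIPO8-miR-552-3p overlapping. The mimic raised it with control siRNA (log2 2.15, SE 0.76, adjusted p = 0.033), with a ratio of 4.59 and a 95% exact counting interval of 2.09 to 11.5. The call was lost with DESeq2 (2.19, adjusted p = 0.11) and without either NC library (2.17 and 2.13, adjusted p = 0.11 and 0.12), either miR-552-3p library (1.76 and 2.47, 0.18 and 0.051) or either siIPO8-NC library (2.16 each, 0.056 and 0.054). The mimic effects on SDS differed by -3.77 (SE 1.07, adjusted p = 0.023), which became -5.83 without siIPO8-miR-552-3p replicate 1 (adjusted p = 0.0091). That difference was not called with DESeq2 (-3.83, adjusted p = 0.075) or without either NC library, miR-552-3p replicate 1, either siIPO8-NC library or siIPO8-miR-552-3p replicate 2 (-3.86 to -2.95, adjusted p 0.052 to 0.097).

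The 3 other SDS effects had no call (mimic with importin8 siRNA -1.62, adjusted p = 0.14, and siRNA 1.89 and -1.88, adjusted p = 0.069 and 0.082). Without siIPO8-miR-552-3p replicate 1, which held 8 of the 9 counts of its group, they were -3.67, 1.89 and -3.94, each called (adjusted p = 0.039, 0.039 and 0.026). The siRNA effect with control mimic was also called without siIPO8-miR-552-3p replicate 2 (1.89, adjusted p = 0.033) and in its own 4 libraries (1.89, 0.027), and that beside the mimic with limma-voom (-2.26, 0.041). GLS2, the liver glutaminase, stayed between 7.31 and 11.1 CPM, and PRODH, proline dehydrogenase, between 1.35 and 3.50, with no call. The PRODH siRNA effect with control mimic was 0.64 (adjusted p = 0.14), and 1.09 without NC replicate 2 (adjusted p = 0.049). PRODH has a closely related pseudogene, and ASS1 and AHCY have processed pseudogenes, with which expected counts can be shared.

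The urea cycle genes did not move together. OTC, ornithine transcarbamylase, which makes citrulline in mitochondria, stood at 2.75 and 3.46 CPM in NC, 0.595 and 0.424 with the mimic alone, 3.45 and 3.37 with the siRNA alone, and 1.15 and 1.23 with both agents. Both mimic groups were below both control mimic groups. OTC fell 6.03-fold with the mimic and control siRNA (log2 -2.59, SE 0.31, adjusted p = 4.3e-05) and 2.85-fold with importin8 siRNA (-1.51, SE 0.28, adjusted p = 0.0025), and its siRNA effects were 0.14 (adjusted p = 0.7) and 1.22 (SE 0.32, adjusted p = 0.015). The last was not called with DESeq2 (1.22, adjusted p = 0.12), its own 4 libraries (1.21, 0.056), or without miR-552-3p replicate 2 (1.00, 0.097), siIPO8-miR-552-3p replicate 1 (1.27, 0.053) or replicate 2 (1.17, 0.066). NAGS, which makes the activator N-acetylglutamate of CPS1, went the other way, at 13.2 and 12.8 CPM in NC, 33.4 and 29.9 with the mimic alone, 18.6 and 17.7 with the siRNA alone, and 23.7 and 25.5 with both agents. The mimic groups were highest and no group overlapped another. NAGS rose 2.43-fold with the mimic and control siRNA (log2 1.28, SE 0.09, adjusted p = 1.1e-06), while the effect with importin8 siRNA was 0.44 (adjusted p = 0.0044), a difference of -0.84 (SE 0.13, adjusted p = 0.00078).

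With the siRNA NAGS rose by 0.48 beside control mimic (adjusted p = 0.002) and changed by -0.36 beside the mimic (adjusted p = 0.0092), where the call was lost with DESeq2 (-0.37, 0.081) and without miR-552-3p replicate 1 (-0.28, 0.086) or siIPO8-miR-552-3p replicate 1 (-0.31, 0.081). ASS1, argininosuccinate synthase, stood at 105 and 92.6 CPM in NC, 56.5 and 53.9 with the mimic alone, 77.2 and 74.1 with the siRNA alone, and 66.3 and 67.1 with both agents. NC was highest and miR-552-3p lowest, with no overlap. It fell by 0.84 with the mimic and control siRNA (SE 0.07, adjusted p = 4.3e-06), and the siRNA with control mimic lowered it by 0.38 (adjusted p = 0.0014). Its siRNA effect beside the mimic was 0.27 (adjusted p = 0.016), and the mimic effects differed by 0.65 (SE 0.10, adjusted p = 0.0009). That 0.27 was not called without miR-552-3p replicate 2 (0.25, adjusted p = 0.092), or without either library with both agents (0.28 and 0.27, 0.059 and 0.069). The mimic effect on ASS1 with importin8 siRNA was -0.18 (adjusted p = 0.082), and was called with library totals alone, with its own 4 libraries and without either NC library (-0.25 to -0.17, adjusted p 0.012 to 0.037).

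CPS1, which fixes ammonia, ASL, which releases arginine, and ARG1, which splits arginine into urea and ornithine, changed little in CPM. CPS1 lay between 23.9 and 32.9 CPM in the 8 libraries, ASL between 46.7 and 72.4, and ARG1 between 7.69 and 11.6. In the deposited FPKM, ARG1 had means of 2.52 in NC, 1.23 with the mimic alone, 1.76 with the siRNA alone and 2.085 with both agents. Its implied length varied between libraries, as given above. ASL rose by 0.53 with the siRNA and control mimic (SE 0.08, adjusted p = 0.00049) and by 0.27 beside the mimic (adjusted p = 0.032), the latter not called with DESeq2 (0.26, adjusted p = 0.091) or without miR-552-3p replicate 2 (0.19, 0.2) or siIPO8-miR-552-3p replicate 1 (0.20, 0.2). Its mimic effects were 0.17 and -0.10, without a call. CPS1 had an siRNA effect of 0.29 with control mimic (adjusted p = 0.037), not called with DESeq2 (0.28, 0.17), its own 4 libraries (0.28, 0.069), or without NC replicate 1 (0.32, 0.056), NC replicate 2 (0.24, 0.14) or siIPO8-NC replicate 1 (0.15, 0.3). Its mimic effect with importin8 siRNA was -0.26 (adjusted p = 0.074), called with library totals alone (-0.33, 0.023) and without siIPO8-NC replicate 2 (-0.38, 0.031). ARG1 had a mimic effect of -0.42 with control siRNA (adjusted p = 0.04), not called with DESeq2 or its own 4 libraries, nor without NC replicate 1 (-0.23, 0.27), either miR-552-3p library (-0.41 and -0.43, 0.13 and 0.11) or either siIPO8-NC library (-0.42 each, 0.055 and 0.054).

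AGXT showed the deepest fall of the 34 genes. AGXT, the peroxisomal aminotransferase that turns glyoxylate into glycine (chr2:240868824-240880500), stood at 95.5 and 95 CPM in NC, 4.81 and 5.09 with the mimic alone, 57.8 and 61.9 with the siRNA alone, and 16.7 and 19.0 with both agents. The 4 groups did not overlap, and both mimic groups were low. AGXT fell 19.2-fold with the mimic and control siRNA (log2 -4.27, SE 0.09, adjusted p = 8.3e-10) and 3.35-fold with importin8 siRNA (-1.74, SE 0.08, adjusted p = 9.3e-07). These effects differed by 2.52 (SE 0.12, adjusted p = 9.2e-07). The siRNA lowered it by 0.67 with control mimic (SE 0.07, adjusted p = 4.4e-05) and raised it 3.61-fold beside the mimic (1.85, SE 0.10, adjusted p = 1.5e-06).

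AMT, the aminomethyltransferase of the glycine cleavage system, followed the same order of groups, at 30.8 and 34.4 CPM in NC, 13.7 and 12.9 with the mimic alone, 26.1 and 26.4 with the siRNA alone, and 17.4 and 18.8 with both agents. NC was highest and miR-552-3p lowest in both genes. AMT fell 2.45-fold with the mimic and control siRNA (log2 -1.29, SE 0.09, adjusted p = 9e-07), while the effect with importin8 siRNA was -0.54 (adjusted p = 0.0013), a difference of 0.76 (SE 0.13, adjusted p = 0.0014). Its siRNA effects were -0.31 (adjusted p = 0.013) and 0.44 (adjusted p = 0.0044), and the first was not called with DESeq2 (-0.32, 0.1) or without NC replicate 2 (-0.23, 0.089), siIPO8-NC replicate 1 (-0.30, 0.072) or replicate 2 (-0.31, 0.061). GLDC, the decarboxylase of the same system, did not follow AMT: it stood at 57.8 and 54.5 CPM in NC, 71.9 and 75.8 with the mimic alone, 109 and 103 with the siRNA alone, and 86.3 and 92.3 with both agents. NC was lowest and siIPO8-NC highest. GLDC rose by 0.92 with the siRNA and control mimic (SE 0.07, adjusted p = 3.1e-06) and by 0.40 with the mimic and control siRNA (adjusted p = 0.00058).

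GLDC was the 1 gene called in opposite directions by both mimic comparisons, against 1.06% of all genes, with -0.25 (adjusted p = 0.015) under importin8 siRNA and a difference of -0.65 (SE 0.09, adjusted p = 0.00059). The -0.25 was not called without siIPO8-NC replicate 1 (-0.21, adjusted p = 0.11), or again without siIPO8-miR-552-3p replicate 1 (-0.20, 0.13). Its siRNA effect of 0.27 beside the mimic (adjusted p = 0.0098) was not called without miR-552-3p replicate 1 (0.24, 0.071) or siIPO8-miR-552-3p replicate 2 (0.23, 0.075).

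The branched-chain genes were the least changed, with no gene of the 5 past 2-fold in any comparison. BCKDHA and BCKDHB, the decarboxylase subunits that commit the branched-chain keto acids, lay between 13.5 and 17.6 and between 10.2 and 14.3 CPM. IVD, isovaleryl-CoA dehydrogenase of the leucine route, lay between 37.0 and 47.5 CPM, and MCCC1, the biotin-carrying subunit of methylcrotonyl-CoA carboxylase, between 14.7 and 17.8. MCCC2, the other subunit of that carboxylase, was the exception and stood at 77.3 and 81.8 CPM in NC, 101 and 101 with the mimic alone, 113 and 112 with the siRNA alone, and 118 and 118 with both agents. It rose by 0.50 with the siRNA and control mimic (SE 0.06, adjusted p = 6.5e-05), by 0.34 with the mimic and control siRNA (adjusted p = 0.00047) and by 0.22 with the siRNA beside the mimic (adjusted p = 0.013), while its partner MCCC1 had no call (-0.17 to 0.09).

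The 0.22 of MCCC2 was not called with DESeq2 or without miR-552-3p replicate 1, or without either library with both agents (0.22 each, adjusted p 0.05 to 0.068). The mimic effects on MCCC2 differed by -0.27 (adjusted p = 0.026), which was not called with DESeq2, with every gene kept, or without any 1 of NC replicate 1, both miR-552-3p, both siIPO8-NC and both siIPO8-miR-552-3p libraries (-0.28 to -0.22, adjusted p 0.055 to 0.11). BCKDHB had a mimic effect of -0.36 with control siRNA (adjusted p = 0.021), not called with DESeq2 (-0.36, 0.16) or without NC replicate 2 (-0.26, 0.14), miR-552-3p replicate 1 (-0.33, 0.097) or replicate 2 (-0.38, 0.061). IVD had -0.23 with the mimic and importin8 siRNA (adjusted p = 0.047), a call lost with DESeq2, RLE factors, every gene kept, and without any 1 library other than NC replicate 2 (-0.31 to -0.14, adjusted p 0.051 to 0.32). Its mimic effect with control siRNA was -0.19 (adjusted p = 0.056), called with library totals alone (-0.26, adjusted p = 0.014).

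Per unit of length, the genes differed widely in level. Over all 8 libraries the mean was highest for HPD (133 FPKM), AHCY (115), KYNU (58.8), HGD (52.3) and ASS1 (46.0). At the low end stood GNMT (2.19 FPKM), ARG1 (1.90), OTC (1.18), UROC1 (0.395), PRODH (0.331) and SDS (0.0988). In NC, AHCY led (93.9 FPKM), ahead of HGD (66), ASS1 (63.0), AGXT (61.9) and HPD (60.4), while in siIPO8-NC HPD led (146 FPKM), ahead of AHCY (108) and ALDH4A1 (66.3). AGXT thus stood among the leading genes in NC and at 3.07 FPKM in miR-552-3p. Of the urea cycle, ASS1 and ASL (33.7 FPKM over all libraries) stood well above CPS1 (4.35), ARG1 and OTC.

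FPKM were also summed over the genes of each route, and such a sum mostly follows the most abundant messages in it. The 4 tryptophan genes summed to 25.4 and 24.1 FPKM in NC, 153 and 142 with the mimic alone, 55.6 and 52.3 with the siRNA alone, and 52.8 and 55.7 with both agents. KYNU was above HAAO in the mean FPKM of the 3 other groups, and in NC the means were 11.9 for KYNU and 12.8 for HAAO. The 3 glycine and glyoxylate genes went the other way, at 85.3 and 89.6 in NC, 26.1 and 27.0 with the mimic alone, 75.5 and 76.4 with the siRNA alone, and 37.9 and 41.4 with both agents. Histidine genes summed to 31.0 and 35.8, 17.4 and 17.5, 48.4 and 48.6, and 37.6 and 38.9 FPKM in the same order of groups, highest in siIPO8-NC and lowest in miR-552-3p. The group of serine, glutamine, proline and ornithine had that order too, at 57.7 to 58.7, 41.7 to 42.4, 106 to 112 and 76.0 to 81.5 FPKM. FTCD was the largest part of the histidine sum, with means of 30.5 FPKM in NC and 12.9 in miR-552-3p. HAL went the other way there, from 0.115 to 2.08 FPKM. Tyrosine genes summed to 138 to 149 FPKM in NC and 228 to 260 in the 6 other libraries. The methionine sum was lowest in NC as well, at 119 to 120 FPKM against 138 to 170. AHCY was its largest part, with a mean of 93.9 FPKM in NC and 149.7 in miR-552-3p. MAT1A, BHMT and GNMT were instead lowest in miR-552-3p (means of 13.8, 2.385 and 0.235 FPKM, against 19.6, 3.36 and 2.765 in NC). Urea cycle sums were lowest in miR-552-3p (77.0 to 84.5 FPKM) and lay between 91.9 and 108 elsewhere, and branched-chain sums lay between 53.1 and 66.8. These sums are descriptions and carry no test. They also carry the changes of implied length between libraries given above for HAAO, ARG1, BCKDHB and FTCD.

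**Figure D4:**
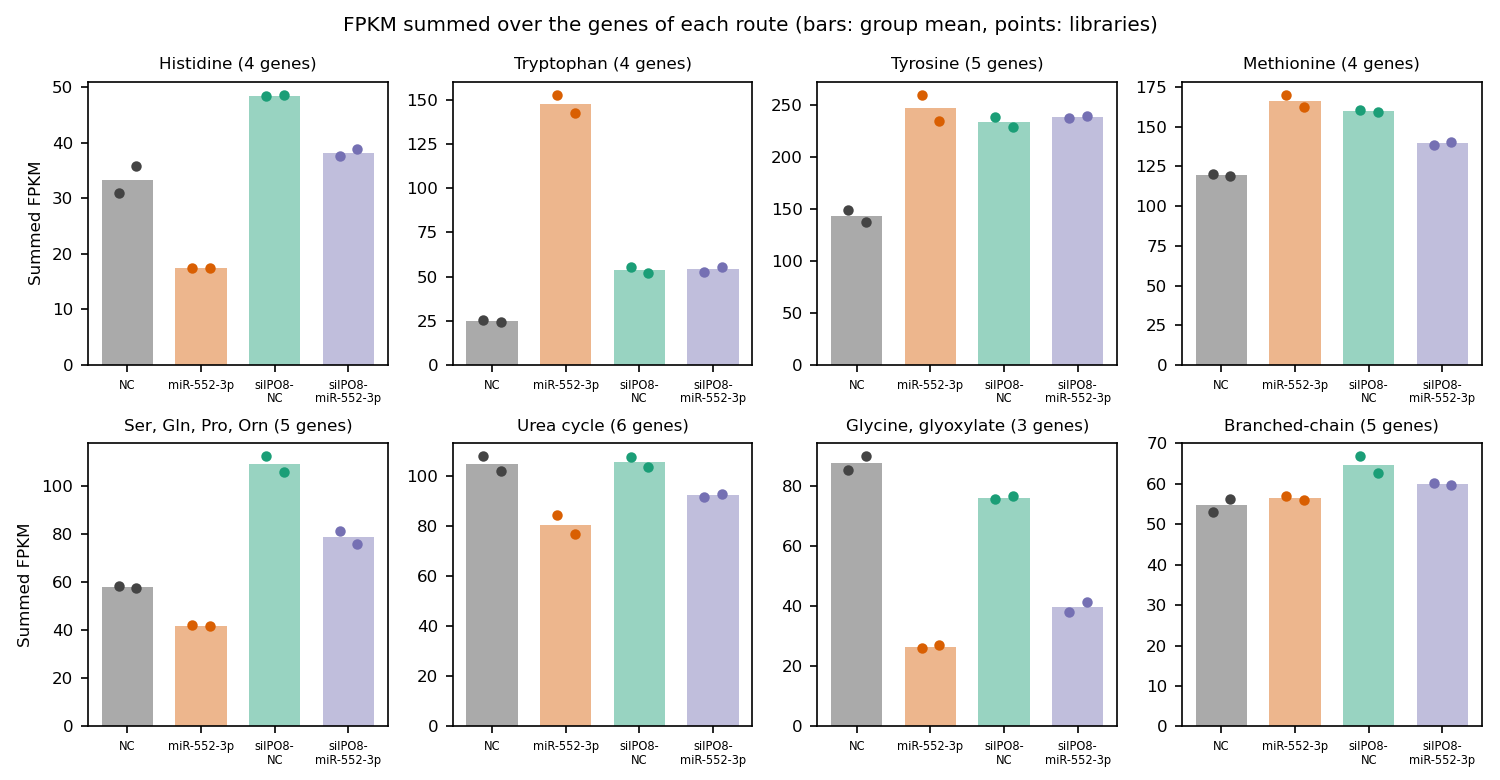
FPKM summed over the genes of each of the 8 routes, with a bar at the group mean and a point for each library, all axes from 0. The tryptophan sum is highest in miR-552-3p (153 and 142 FPKM) and the glycine and glyoxylate sum is lowest there (26.1 and 27.0 FPKM).

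Among the 34 genes alone, the first principal component of log2 CPM held 53.1% of the variance and ran from NC (-4.50 and -5.44) through siIPO8-NC (-1.27 and -1.81) and siIPO8-miR-552-3p (2.08 and 2.18) to miR-552-3p (4.39 and 4.37). The second (39.9%) set the control siRNA libraries (2.83 to 3.10) apart from the importin8 siRNA libraries (-4.07 to -1.67). Replicates lay close together on both. The 36 genes took 0.142 and 0.145% of all counts in NC, 0.167 and 0.16% with the mimic alone, 0.195 and 0.19% with the siRNA alone, and 0.162 and 0.163% with both agents. The share was lowest in NC and highest in siIPO8-NC.

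The difference between both mimic effects was called for 17 of the 34 genes, 7 higher and 10 lower with importin8 siRNA than without, where 31.3% of all genes tested were called, 14.2% higher and 17.1% lower. Differences past 2-fold were 1 higher and 5 lower, against 5.63% and 5.27% of all genes. The median difference was -0.11, against -0.02 over all genes. A higher value means a smaller fall for FTCD, HAAO, HGD, ALDH4A1, ASS1, AMT and AGXT, since each fell with the mimic and control siRNA. Of the 10 lower ones, HAL, KYNU, HPD, FAH, AHCY, SDS, NAGS, GLDC and MCCC2 had risen with the mimic and control siRNA, and MAT1A had fallen and fell further. The mimic effect was thus nearer to 0 beside importin8 siRNA for 16 of these 17 genes by its fitted value. The same share over all genes was not computed. Of all genes tested, 58.4% were called for the mimic with control siRNA and 31.7% with importin8 siRNA. The 17 were picked by a difference that includes the effect with control siRNA at reversed sign, which favours this outcome. The contrast reuses the libraries of all 4 groups in the comparisons above and is no independent evidence of them.

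Of 74 other genes of the same pathways, 66 were tested, and their counts were not compared with those of the 34 by a test. The siRNA raised 29 and lowered 17 with control mimic (median log2 fold change 0.18), where it raised 25.4% and lowered 21.6% of all genes. Beside the mimic it raised 23 and lowered 14 (0.18), where the shares over all genes were 17.3% and 16.2%. The mimic raised 24 and lowered 29 with control siRNA (-0.27), against 28.9% and 29.5% of all genes. With importin8 siRNA it raised 6 and lowered 23 (-0.16), against 15% and 16.7%. ACADSB, the dehydrogenase of short branched-chain acyl-CoA, fell 5.46-fold with the mimic and control siRNA, from a mean of 205 to 37.5 CPM (log2 -2.45, SE 0.07, adjusted p = 2.2e-09), fell by 1.51 with importin8 siRNA and rose by 1.21 with the siRNA beside the mimic. ALDH18A1, which makes proline and ornithine precursors from glutamate, opposite to ALDH4A1, fell 5.22-fold with the mimic and control siRNA (694 to 133 CPM, adjusted p = 5.3e-09) and by 1.05 with the siRNA and control mimic. CTH, which makes cysteine from cystathionine, rose 5.36-fold with the mimic and control siRNA (11.4 to 61.2 CPM, adjusted p = 1.6e-08), and GPT, alanine aminotransferase, fell by 2.30 (9.74 to 1.97 CPM, adjusted p = 2.4e-05).

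With importin8 siRNA, the mimic lowered SUOX, sulfite oxidase, by 1.26, CDO1, which oxidises cysteine, by 1.17, and PRODH2, hydroxyproline dehydrogenase, by 1.11 (adjusted p = 2.3e-05, 0.00066 and 3.9e-05). The siRNA with control mimic lowered PPM1K, the phosphatase that activates the branched-chain dehydrogenase, by 1.24, MCEE, methylmalonyl-CoA epimerase, by 1.19, and ARG2, the mitochondrial arginase, by 1.15 (adjusted p = 1.3e-06, 0.00093 and 1.5e-06). Beside the mimic it raised PRODH2 by 1.63, CDO1 by 1.17 and SHMT1, a serine hydroxymethyltransferase, by 0.92 (adjusted p = 6.6e-06, 0.0011 and 2.3e-05).

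Promoters, as 250 bases before to 50 after a start site, were present in RefSeq's GRCh38.p14 table for 33 of the 36 genes (43 promoters, with no entry for HGD, PRODH and TAT). A 9-base HNF4A element, CAAAGTCCA, matched on either strand in 1 of the 43 promoters (2.33%), that of HAAO, and in 0.384% of 35116 promoters in all. The E-box CACGTG was in 6 of 43 (14%), those of ASS1, CPS1, HPD, MCCC1 and MCCC2, against 7.26% of all. Overlapping promoters of MCCC1 hold the same E-box and were counted separately here. The CRE TGACGTCA was in 0 of 43 (1.85% of all), TGATGNAA of the C/EBP and ATF composite in 0 (3.62%), the C/EBP palindrome TTGCGCAA in 0 (0.151%) and the seed match CACCTGT in 0 (4.11%). No match says only that these letters are not in this window. HNF4A, a nuclear receptor of hepatocytes and one of the markers above, stood at 255 to 260 CPM in NC, 185 to 202 with the mimic alone, 310 to 317 with the siRNA alone, and 240 to 246 with both agents. A link between the HNF4A level and HAAO or the other genes was not tested. The HAAO promoter is printed for its HNF4A match (capitals, from base 130), at chr2:42792534-42792833 on the minus strand. Those of the neighbours HAL (chr12:95996295-95996594, minus strand) and AMDHD1 (chr12:95943081-95943380, plus strand) are printed because both genes rose with the siRNA in both settings, and they held none of these motifs.
HAAO promoter: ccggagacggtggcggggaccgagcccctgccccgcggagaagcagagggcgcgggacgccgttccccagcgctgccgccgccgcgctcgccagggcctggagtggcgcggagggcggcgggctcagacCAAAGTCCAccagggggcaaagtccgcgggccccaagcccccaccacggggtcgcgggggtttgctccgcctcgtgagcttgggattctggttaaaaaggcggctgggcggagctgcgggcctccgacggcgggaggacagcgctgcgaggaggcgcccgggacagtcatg
HAL promoter: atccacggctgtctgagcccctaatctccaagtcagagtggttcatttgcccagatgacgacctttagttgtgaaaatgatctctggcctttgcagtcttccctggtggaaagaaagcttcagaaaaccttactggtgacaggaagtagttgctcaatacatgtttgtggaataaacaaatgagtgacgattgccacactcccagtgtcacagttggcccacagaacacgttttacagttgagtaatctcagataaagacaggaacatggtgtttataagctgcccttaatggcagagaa
AMDHD1 promoter: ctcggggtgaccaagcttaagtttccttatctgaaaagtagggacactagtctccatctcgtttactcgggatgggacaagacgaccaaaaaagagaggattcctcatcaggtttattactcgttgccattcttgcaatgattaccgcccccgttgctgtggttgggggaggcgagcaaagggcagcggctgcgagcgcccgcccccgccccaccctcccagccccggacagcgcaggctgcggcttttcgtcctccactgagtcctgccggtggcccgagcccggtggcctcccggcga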

How the data were processed

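RNA of 8 HepG2 libraries (single-end reads of 50 bases) was grouped by sample title. Per the file headers, the deposited table gives an expected count and an expression value for each gene and library, and the values of the latter behave as FPKM. The genome named in the submitters' processing notes is GRCh38.p12, and the tools are RSEM 1.2.8, HISAT2 2.0.4 and Bowtie2 2.2.5. The role of each tool and the handling of strand are not given in the sources used here. Reads shared by similar genes are divided among them in an expected count, and 24.3 to 26.5% were whole numbers (tolerance 1e-06). Abbreviated column names were matched to titles, and 0 columns of per-sample values were left unmatched.

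The authors' expected counts were rounded, filtered with filterByExpr on the groups, scaled by TMM (factors 0.961 to 1.06) and fitted over all 8 libraries with a mean per group (edgeR 4.0.16, quasi-likelihood F test, robust, R 4.3.3). P-values were adjusted by Benjamini-Hochberg over 17715 genes. The SE, which is approximate, is the size of a log2 fold change divided by the square root of F. CPM use TMM library sizes. The authors' deposited FPKM were used for levels between genes, for the sums of each route by group and for implied lengths, and in no test. Exact counting intervals are binomial and cover counting error only. Replicates of every group differed by more than counting noise (chi-square over its degrees of freedom, 4.52 to 10.6). Tested on simulated data for the mimic with control siRNA (17715 genes, 200 changed), the fit recovered 88% of genes changed by 1 and 100% of those changed by 2 on the log2 scale, and 6% of its calls were false. The changed genes were drawn only above a floor of mean counts, so this recovery does not cover genes of few counts such as SDS and UROC1. In the real comparison 58.4% of genes were called, so the simulated share of false calls cannot be carried over to it.

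Alternatives were DESeq2 1.42.0, limma-voom (limma 3.58.1), RLE factors, library totals alone, every gene with a count, a replicate block, the 4 libraries of a comparison alone, and each library left out. All 36 genes are named. Those called with a log2 fold change of at least 1 in a pairwise comparison have their 8 values given, and of the 74 other pathway genes up to 4 per comparison are named, by size among called genes with a mean of at least 100 counts. The genes and lists were chosen with earlier results of these data known, and the 3′ UTR search was added after the data were seen.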

Additional observations from a re-analysis of the deposited data

Results flagged for a closer look

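In 17 of the 34 tested genes the mimic effect differed between cells with importin8 siRNA and cells with control siRNA, by the test of that difference itself (edgeR's quasi-likelihood test, Benjamini-Hochberg adjusted over all genes, called for 31.3% of all genes tested). Values are log2 fold change with importin8 siRNA minus that with control siRNA. The difference was -3.88 for HAL (adjusted p = 1.3e-06), -3.20 for KYNU (2.4e-07) and -3.77 for SDS (0.023), the last on 1 to 22 counts a library. It was -1.40 for HPD (0.00014), -1.30 for FAH (4.9e-05), -0.84 for NAGS (0.00078), -0.65 for GLDC (0.00059) and -0.64 for AHCY (0.0007). It was -0.28 for MAT1A and -0.27 for MCCC2 (0.026 each). In the other direction it was 2.52 for AGXT (9.2e-07), 0.76 for AMT (0.0014), 0.65 for ASS1 (0.0009), 0.64 for FTCD (0.016), 0.48 for HAAO (0.017), 0.41 for HGD (0.01) and 0.34 for ALDH4A1 (0.011). The calls of SDS, MAT1A, MCCC2, FTCD, HAAO and ALDH4A1 were lost in at least 1 fit that left out a library, with the values given beside each gene above.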

How the results depend on the processing

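No result changed direction past the threshold under any alternative. Of the counts of called genes, 289 recomputed values stayed within 1.5 times the first value and 7 did not, all 7 for the mimic with importin8 siRNA. There, genes lower among all tested were 1911 with DESeq2, against 2958. With each library left out in turn, that comparison gave 1639 to 3095 higher and 1877 to 3071 lower among all genes, and 2 to 4 higher and 10 to 13 lower of the 34. Without siIPO8-NC replicate 2 the counts among all genes were 1639 and 1906, and they were 1674 and 1877 when replicate 1 of siIPO8-miR-552-3p was left out. Leaving out its replicate 2 gave 1952 lower. Leaving out libraries gave 9 to 10 higher and 12 to 15 lower of the 34 for the mimic with control siRNA, 16 to 19 and 3 to 5 for the siRNA with control mimic, 12 to 19 and 2 to 3 for the siRNA beside the mimic, and 5 to 8 and 7 to 9 for the difference between mimic effects. Of single gene values, 123 lost their call and 34 gained one. A group left with 1 library is assumed to vary like the others. For the mimic with control siRNA and the siRNA with control mimic, every fit without 1 library also called fewer of all genes, in each direction. For the siRNA beside the mimic and for the difference, some of these fits called fewer of all genes and some more.

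Replicate numbers did not pair the libraries: deviations of same-numbered libraries correlated at 0.0426, 0.0867, 0.0153, 0.0256, 0.00914 and -0.00335 over the 6 pairs of groups. With the replicate block, calls higher and lower of the 34 were 11 and 15 for the mimic with control siRNA, 4 and 12 for the mimic with importin8 siRNA, 18 and 5 for the siRNA with control mimic, 19 and 3 for the siRNA beside the mimic, and 8 and 11 for the difference. Over all genes tested they were 5180 and 5244, 2796 and 3051, 4613 and 3883, 3172 and 2949, and 2591 and 3195 in that order. The single calls that the block changed were all gains: FTCD with the siRNA and control mimic (-0.28, adjusted p = 0.0076) and beside the mimic (0.34, 0.0059), ASL with the mimic and control siRNA (0.17, 0.037), and the differences between mimic effects of ASL (-0.26, 0.039) and TAT (0.52, 0.05). With 2 libraries a group, genes of few counts such as SDS, UROC1 and GNMT have wide intervals, and a missing call does not show that a gene was unchanged.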
